A study of Rattus norvegicus with 78 samples.

Results

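Mitochondrial ribosomal proteins are encoded by nuclear genes whose symbols begin with Mrpl (large subunit) or Mrps (small subunit). The genes described here are those that the platform annotation spells with Mrpl or Mrps followed by a digit, on probe sets with 1 symbol. Each gene was represented by its probe set of highest mean over all 78 arrays. This gave 71 genes of 14506 named genes, or 75 of 29214 probe sets, since 4 genes had 2 probe sets. Of the 71, 46 belong to the large subunit, among them Mrps30 and Mrps18a in spite of their names, and 25 to the small subunit. All 71 matched the RefSeq gene table by Entrez identifier. Mrpl20 was left out because it shares its probe set with Ankrd65.

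The arrays measured RNA of sperm let out of the punctured cauda epididymis of Fischer 344 rats, with 1 array per biological replicate. At the end of an exposure of 3 months there were 20 arrays from rats given corn oil and 20 from rats given 1,2-dibromo-3-chloropropane (DBCP, a soil fumigant toxic to male germ cells) at 5 mg/kg/day. After a recovery period there were 19 arrays for each of these treatments. Neither the length of the recovery nor the age of the rats is given in the labels, so recovery and the passage of time cannot be told apart. The series title names testis, while the label of each sample names sperm.

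The mitochondrial ribosome sits in the mitochondrial matrix and translates the few messenger RNAs that mitochondrial DNA encodes, all of them for subunits of the respiratory chain and the ATP synthase. Its ribosomal RNAs come from mitochondrial DNA, but every one of its proteins is imported. Some of these proteins have a bacterial counterpart and others exist only in mitochondria. Sperm carry their mitochondria in a helical sheath in the midpiece, and ripe sperm make little new RNA or protein, so most of their transcripts are left from the spermatid stage.

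The values are log2 signals as deposited. Array medians lay between 6.55 and 6.75, and the lowest and highest r of any pair of arrays were 0.86 and 0.988. Some markers of sperm were bright: Odf1 of the tail's outer dense fibres, Smcp of the mitochondrial capsule and the protamine Prm1 had group means from 12.82 to 14.18. Other sperm tail genes were dim, such as Spag6 (6.10 to 6.14) and Tekt1 (5.99 to 6.35). Transcripts of other cells were also present. Cd74, a chaperone of antigen presentation in leukocytes, had group means from 10.89 to 11.87, and the globin Hbb from 11.66 to 12.20. In such bulk RNA, fewer cells of a type and less RNA per cell cannot be told apart. The replicate numbers fall into 1 to 10 and 11 to 20, with 9 or 10 arrays of each group in either set, and results are also given within each set below. A limma array weight under 0.5 was found for 6 arrays: DBCP replicates 2, 13 and 20, DBCP recovery replicates 7 and 15, and corn oil recovery replicate 11.

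Promoters of 4 genes are shown because the first 3 had the largest rises described below and the other was also called and holds letters of NRF1, a regulator of nuclear genes for mitochondria. The sequences are RefSeq's, build GRCr8, and give the 250 bases before the annotated start, 5′ to 3′ on the gene's strand. Capitals mark matches on either strand to CCGGAAG (the core read by ETS factors such as GABP) or GCGCANGCG (NRF1).
Mrps30 (chr2:52195905-52196154, minus strand): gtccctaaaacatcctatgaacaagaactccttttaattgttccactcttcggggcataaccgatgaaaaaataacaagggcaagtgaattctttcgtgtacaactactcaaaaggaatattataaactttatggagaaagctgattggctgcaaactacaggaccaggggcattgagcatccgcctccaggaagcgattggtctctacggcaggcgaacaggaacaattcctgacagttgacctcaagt
Mrpl42 (chr7:32028523-32028772, minus strand): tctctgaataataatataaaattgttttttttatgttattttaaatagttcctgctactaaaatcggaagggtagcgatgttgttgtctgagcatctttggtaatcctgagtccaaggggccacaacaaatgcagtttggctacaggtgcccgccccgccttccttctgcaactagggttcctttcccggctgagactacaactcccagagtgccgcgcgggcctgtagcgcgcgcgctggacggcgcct
Mrps18c (chr14:9122907-9123156, minus strand): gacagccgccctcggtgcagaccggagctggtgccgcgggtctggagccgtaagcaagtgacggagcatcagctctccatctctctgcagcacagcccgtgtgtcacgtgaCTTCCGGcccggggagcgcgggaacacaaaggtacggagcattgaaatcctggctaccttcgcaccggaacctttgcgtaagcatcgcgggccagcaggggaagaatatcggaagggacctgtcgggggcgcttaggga
Mrpl32 (chr17:55260401-55260650, plus strand): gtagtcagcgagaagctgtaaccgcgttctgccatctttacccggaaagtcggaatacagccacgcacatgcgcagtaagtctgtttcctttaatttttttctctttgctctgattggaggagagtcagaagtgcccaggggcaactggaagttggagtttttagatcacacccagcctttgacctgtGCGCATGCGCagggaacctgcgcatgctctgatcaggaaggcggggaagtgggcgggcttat

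The Mrps18c window holds the ETS letters from 139 to 133 bases before the start. The Mrpl32 window holds the NRF1 letters on both strands, in matches that overlap, from 62 to 53 bases before the start. The windows of Mrps30 and Mrpl42 hold neither. A promoter was found in the table for 57 of the 71 genes. ETS letters were in 11 of these 57 windows (19.3%), against 7.74% of all 27457 promoters in the table. NRF1 letters were in 10 of 57 (17.5%), against 5.53%. The letters AAGATGGCG, read by YY1, were in 1 of 57 (1.75%) and in 0.736% of all. The cyclic AMP element TGACGTCA was in 1 of 57 (1.75%) and in 1.70% of all. GC content had a median of 54.4% in the 57 windows and 52.0% in all. Among the 13 genes called over time that have a window, ETS letters were in 2 (Mrps18a and Mrps18c) and NRF1 letters in 1 (Mrpl32). These are matches of letters, not measured binding.

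Signals of the 71 genes lay in the middle of the array's range. The 39 genes at or above the median probe set mean of 6.69 and the 32 below it spread between corn oil means of 5.46 for Mrpl32, a small zinc-binding protein of the large subunit, and 8.81 for Mrpl42, which exists only in mitochondrial ribosomes. The corn oil means next to Mrpl42 were 8.26 for Mrps11, 8.21 for Mrpl54, 8.17 for Mrps21 and 8.03 for Mrpl52. Next to Mrpl32 were Mrpl49 at 5.53, Mrpl12 at 5.61, Mrpl55 at 5.72 and Mrpl11 at 5.79. Signals of different probe sets depend on their probes, so this order does not rank the transcripts. Averaged over the 71 genes, an array's level was 6.70 to 6.88 (median 6.79) in corn oil rats and 6.75 to 7.00 (6.83) in DBCP rats. After recovery it was 6.73 to 6.97 (6.84) and 6.73 to 7.03 (6.84). The 4 ranges overlapped. The large-subunit mean was 6.75 ± 0.07 (SD, n = 20) in corn oil rats and 6.81 in each of the other groups. The small-subunit mean was 6.87 ± 0.04 (SD, n = 20) in corn oil rats and 6.91 to 6.92 in the others.

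The first comparison asked whether DBCP altered these transcripts in sperm at the end of exposure. With limma, 0 of the 71 genes passed an adjusted p of 0.05, and 0% of all probe sets did; such genes are called below. At an unadjusted p under 0.05 there were 13 of 71 (18.3%), against 11.6% of all probe sets and 18.1% of named genes at or above the median signal. The log2 difference, DBCP minus corn oil, was above 0 for 53 of 71 genes (74.6%). This held for 38.0% of all probe sets, 55.6% of named genes at or above the median signal and 31.0% of those below it. The list's median difference was 0.04, against -0.02 over all probe sets and 0.01 over named genes at or above the median signal. The lowest limma adjusted p of the list was 0.178.

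The 5 genes of smallest p had these values. Mrpl43, a protein found only in mitochondrial ribosomes, ranged from 6.40 to 6.98 (median 6.65) on corn oil arrays and from 6.60 to 7.06 (6.83) on DBCP arrays. Its difference was 0.14 ± 0.04 (SE, limma adjusted p = 0.178), with 17 of 20 DBCP arrays above the corn oil mean. Mrpl10, which anchors the stalk of the large subunit, ranged from 7.18 to 8.00 (7.63) on corn oil arrays and from 7.38 to 8.54 (7.80) on DBCP arrays, a difference of 0.25 ± 0.08 (limma adjusted p = 0.178). The groups overlapped for both genes. Mrpl37 had a difference of 0.15 ± 0.05, Mrpl15 one of 0.16 ± 0.05 and Mrps15, a protein of the small subunit's body, one of 0.27 ± 0.11. The Mrps15 value was 0.04 ± 0.15 within replicates 1 to 10, 0.51 ± 0.16 within replicates 11 to 20, and 0.10 without the 6 arrays of low weight.

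Other differences in the same comparison bound what the arrays could show. The 95% interval of the difference lay within 0.5 of 0 for 68 of 71 genes. The highest upper bound was 0.60 (Mrpl54) and the lowest lower bound -0.18 (Mrpl19). Mrpl54 ranged from 7.46 to 8.95 (8.22) on corn oil arrays and from 7.95 to 9.81 (8.43) on DBCP arrays. Its difference of 0.33 ± 0.13 did not pass (limma adjusted p = 0.302). Mrps12, a protein of the decoding centre, differed by 0.06 ± 0.04, and Mrpl45, which ties the ribosome to the inner membrane, by 0.05 ± 0.05. Beside the list, the mean level of 12 sperm tail genes was 9.03 ± 0.23 in corn oil and 9.25 ± 0.33 in DBCP rats (SD, n = 20 each), and that of 26 leukocyte genes 8.22 ± 0.21 and 8.10 ± 0.23. Their part in the values of the 71 genes was not tested.

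After recovery the list stood nearer to 0. With limma 0 of 71 genes and 0% of all probe sets were called, and 4 genes (5.63%) had an unadjusted p under 0.05, against 3.71% of all probe sets. The difference was above 0 for 37 and below 0 for 34, with a median of 0.01, which was -0.01 after quantile normalization, after array centring and without the 6 arrays of low weight. Mrpl18, of the large subunit's central protuberance, ranged from 5.66 to 6.47 (6.15) on corn oil arrays and from 6.11 to 6.68 (6.23) on DBCP arrays, which overlap. Its difference was 0.16 ± 0.05 (limma adjusted p = 0.983), with 17 of 19 DBCP arrays above the corn oil mean. The next smallest p belonged to Mrpl50 (0.16 ± 0.06), Mrpl24 (0.12 ± 0.05), Mrpl9 (0.11 ± 0.05) and Mrpl35 (-0.14 ± 0.08). The Mrpl50 difference was -0.04 ± 0.09 within replicates 1 to 10 and 0.39 ± 0.08 within replicates 11 to 20. All 71 intervals (95%) lay within 0.5 of 0.

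The interaction tested whether the DBCP difference changed between the end of exposure and recovery. It was called for 0 of 71 genes with limma and for 0% of all probe sets, and 10 genes (14.1%) had an unadjusted p under 0.05, against 10.9% of all probe sets. It was below 0 for 41 genes and above 0 for 30. Its median was -0.05, against 0.03 over all probe sets and -0.03 over named genes at or above the median signal. The medians of the respiratory chain genes and the cytosolic ribosomal proteins were -0.18 and -0.16. The smallest p were those of Mrpl15 (-0.20 ± 0.07), Mrpl18 (0.19 ± 0.07), Mrps7 (-0.18 ± 0.07), Mrpl4 (-0.23 ± 0.09) and Mrps15 (-0.37 ± 0.16), each with a limma adjusted p of 0.454.

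The calls lay between recovery and the end of exposure. Among corn oil rats, 13 of 71 genes (18.3%) were called, 10 higher and 3 lower after recovery. Over all probe sets 24.3% were called, 11.5% higher and 12.8% lower, so the list's share was not above that of the array. Higher calls made up 14.1% of the list and lower calls 4.23%. Among all named genes these shares were 16% and 12.3%, and among named genes at or above the median signal 22.1% and 13.2%. Above 0 were 40 of 71 genes (56.3%), against 38.4% of all probe sets and 49.3% of named genes at or above the median signal. The median difference was 0.02, against -0.04 over all probe sets and -0.003 over those named genes. It was 0.05 under quantile normalization and under array centring, 0.002 without corn oil recovery replicate 10 and 0.029 without corn oil recovery replicate 17. Calls fell on 10 of 46 large-subunit genes (7 higher) and on 3 of 25 small-subunit genes (3 higher). By origin, 8 of 42 proteins with a bacterial counterpart and 5 of 29 found only in mitochondria were called. Under array centring 17 were called, 16 higher and 1 lower, and under quantile normalization 17, 15 higher and 2 lower. These counts were not set against the share of all probe sets under the same scaling.

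Mrps30, a large-subunit protein found only in mitochondria and once described as an apoptosis protein, had the smallest p. It ranged from 6.02 to 6.99 (median 6.39) on the earlier corn oil arrays and from 6.43 to 7.18 (6.79) after recovery. All 19 recovery arrays lay above the earlier mean of 6.41, although the 2 ranges overlapped. The difference was 0.38 ± 0.07 (limma adjusted p = 5.04e-05), a 1.30-fold rise. Within replicates 1 to 10 it was 0.61 ± 0.09 (limma adjusted p = 1.78e-05) and within replicates 11 to 20 it was 0.13 ± 0.09 (adjusted p = 0.381).

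Mrpl42 ranged from 7.99 to 10.09 (8.66) before and from 8.79 to 10.01 (9.29) after recovery. The highest corn oil array lay above every recovery array, yet 18 of 19 recovery arrays were above the earlier mean. The difference was 0.46 ± 0.13 (limma adjusted p = 0.00914), and the gene's other probe set rose too (0.40 ± 0.11, limma adjusted p = 0.00543). Mrps18c, the counterpart of bacterial S18, ranged from 6.07 to 6.92 (6.50) before and from 6.36 to 7.65 (6.86) after recovery. It rose by 0.44 ± 0.13 (limma adjusted p = 0.00810), with overlapping groups. Its difference was nearly the same in either set of replicates, 0.43 ± 0.16 and 0.45 ± 0.18, while that of Mrpl42 was 0.62 ± 0.16 and 0.30 ± 0.20.

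**Figure D1:**
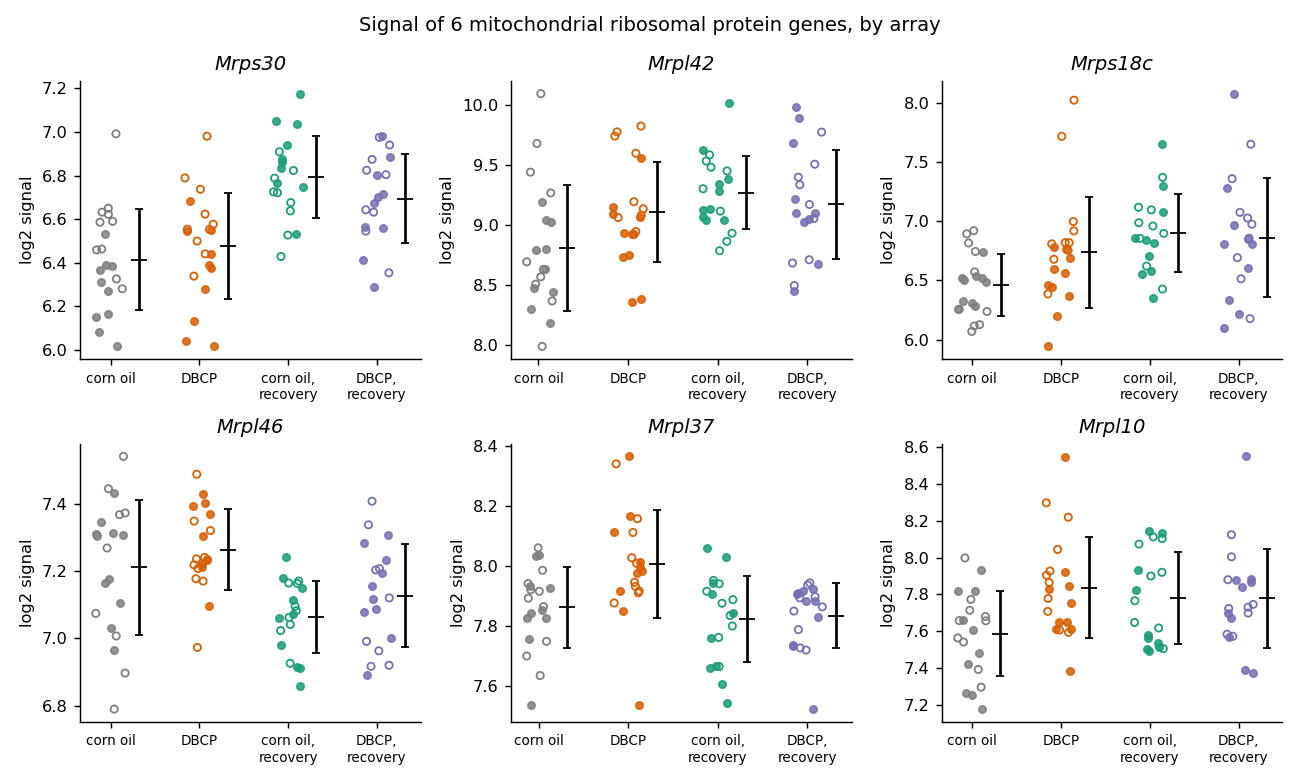
Log2 signal of 6 genes on each of the 78 arrays, by group; filled points are replicates 1 to 10, open points replicates 11 to 20, and the bar beside each group is the mean ± SD. The groups overlap in every panel, and Mrps30 is above its earlier mean on all 19 corn oil recovery arrays.

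The other rises in corn oil rats were smaller. Mrps21, a small-subunit protein kept from bacteria, went from a median of 8.17 (7.60 to 8.51) to 8.38 (7.97 to 8.95), a rise of 0.25 ± 0.07. Mrpl51 went from 6.87 (6.37 to 7.36) to 7.08 (6.81 to 7.51), a rise of 0.24 ± 0.08. Mrpl4, which lines the exit tunnel for the new protein, went from 7.05 (6.63 to 7.42) to 7.23 (6.94 to 7.59), a rise of 0.24 ± 0.07. These 3 overlapped between the groups, as did all 71 genes in each of the 4 comparisons between 2 groups. The share of all probe sets that overlapped is not given here, so the overlap is not a trait of these genes. Mrpl16 rose by 0.22 ± 0.06, Mrps7, of the small subunit's head, by 0.18 ± 0.05, Mrpl32 by 0.18 ± 0.06 and Mrps18a by 0.17 ± 0.06. The Mrps18a call (limma adjusted p = 0.0371) was lost on leaving out any 1 of 8 arrays: corn oil replicates 6, 11, 12 and 14 and corn oil recovery replicates 4, 11, 14 and 19.

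The 3 genes that fell were all of the large subunit. Mrpl2, which helps to hold the peptidyl transferase centre, went from a median of 6.80 (6.44 to 7.08) to 6.58 (6.27 to 6.97), a difference of -0.17 ± 0.06 (limma adjusted p = 0.0209). Mrpl18 went from 6.27 (6.02 to 6.59) to 6.15 (5.66 to 6.47), a difference of -0.15 ± 0.05. Mrpl46 went from 7.29 (6.79 to 7.54) to 7.07 (6.86 to 7.24), a difference of -0.15 ± 0.05, and 18 of 19 recovery arrays lay below the earlier mean. The Mrpl18 call was lost under quantile normalization (-0.12) and array centring (-0.12), and without corn oil recovery replicate 11 or 16. The Mrpl46 call was lost under array centring (-0.12).

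Fewer genes were called within each set of replicates. Within replicates 1 to 10 alone 8 of 71 genes were called, all higher, and 16.3% of all probe sets. Within replicates 11 to 20 alone 0 of 71 were called with limma and 1.32% of all probe sets. The median SE of the 71 genes was 0.07 in the first set and 0.08 in the other. All 13 called genes kept their direction in both sets. Whether the sets differ was not tested. Without the 6 arrays of low weight 18 genes were called, 15 higher and 3 lower, a count not set against the share of all probe sets.

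Among DBCP rats, 4 of 71 genes (5.63%) were called between recovery and the end of exposure, 1 higher and 3 lower. Over all probe sets 13.5% were called, 7.28% higher and 6.19% lower, so the list was again not above the array's share. The median difference was -0.001, against 0.01 over all probe sets, and 35 of 71 were above 0. It was 0.03 within replicates 1 to 10 and -0.04 within replicates 11 to 20. Under quantile normalization 4 were called, 2 higher and 2 lower, and under array centring 3, 1 higher and 2 lower. The share of all probe sets under these scalings is not given here. The 4 genes were all of the large subunit and found only in mitochondria.

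Mrpl37 had the smallest p. It ranged from 7.54 to 8.37 (median 7.99) on the earlier DBCP arrays and from 7.52 to 7.94 (7.88) after recovery, and all 19 recovery arrays lay below the earlier mean of 8.01. The difference was -0.17 ± 0.05 (limma adjusted p = 0.00714), -0.17 ± 0.08 within replicates 1 to 10 and -0.18 ± 0.06 within replicates 11 to 20. Mrpl43 went from a median of 6.83 (6.60 to 7.06) to 6.66 (6.47 to 6.89), a difference of -0.15 ± 0.04 (limma adjusted p = 0.0183), and -0.12 with an adjusted p of 0.0975 without the 6 arrays of low weight. Both genes were also among the 5 of smallest p when DBCP was compared with corn oil. That comparison uses the same 20 DBCP arrays.

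Mrps30 ranged from 6.02 to 6.98 (6.52) on DBCP arrays before and from 6.29 to 6.98 (6.70) after recovery, an overlap of nearly the whole range. It rose by 0.22 ± 0.07 (limma adjusted p = 0.0258), 0.31 ± 0.09 within replicates 1 to 10 and 0.12 ± 0.09 within replicates 11 to 20. Mrpl46 went from 7.24 (6.97 to 7.49) to 7.12 (6.89 to 7.41), a difference of -0.14 ± 0.05 (limma adjusted p = 0.0487). Its call was lost on leaving out any 1 of 25 of the 39 arrays. Without DBCP replicate 8 only Mrpl37 and Mrpl43 were called, and without DBCP replicate 2 Mrps30 was lost. Mrpl12, the stalk protein that recruits translation factors, had the fifth smallest p but did not pass (-0.15 ± 0.06, limma adjusted p = 0.0870). Within replicates 1 to 10 alone 3 genes were called, all higher, and 10.4% of all probe sets. Of the 4 genes called on all arrays, only Mrps30 was among these 3. Within replicates 11 to 20 alone 0 genes were called with limma, and 1.73% of all probe sets. Without the 6 arrays of low weight 3 were called, 1 higher and 2 lower, again without the share of all probe sets.

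**Figure D2:**
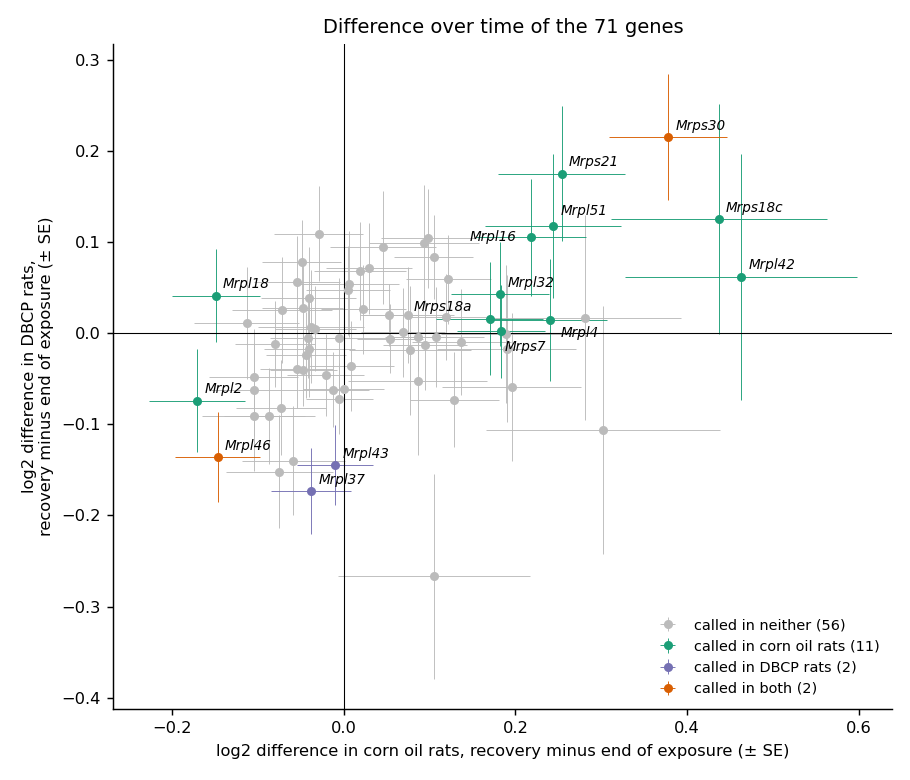
Log2 difference between recovery and end of exposure of the 71 genes, in corn oil rats (horizontal) and DBCP rats (vertical), with bars of ± SE and colours for the calls. Mrps30 and Mrpl46 are called in both, and most of the 56 genes called in neither lie close to 0.

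Mrps30 and Mrpl46 were called in both treatments, in the same direction in each. They are 15.4% of the corn oil calls and 50% of the DBCP calls, shares that were not set against those of all probe sets. These 2 comparisons share no arrays. For the genes called in corn oil rats alone, the DBCP values were 0.06 ± 0.13 for Mrpl42, 0.13 ± 0.13 for Mrps18c, 0.18 ± 0.07 for Mrps21 and 0.12 ± 0.08 for Mrpl51. The other probe set of Mrpl42 had a DBCP value of 0.26 ± 0.11 (limma adjusted p = 0.0947). The test of the difference between treatments is the interaction, which called none of the 71 genes (limma, with 10 at an unadjusted p under 0.05).

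Lists of functional neighbours were read from the same fit over time in corn oil rats. Of 71 cytosolic ribosomal proteins 32 were called, 31 higher (43.7%), with a median difference of 0.16. Of 69 respiratory chain and ATP synthase genes 35 were called, all higher (50.7%), with a median of 0.18. The corresponding values of the 71 mitochondrial ribosomal proteins were 10 higher (14.1%) and 0.02, or 15 to 16 higher and 0.05 under the other scalings, for which the neighbouring lists were not recomputed. Higher calls were 11.5% over all probe sets, 16% over all named genes and 22.1% over named genes at or above the median signal. Examples are Rpl28 (0.63 ± 0.10), Uqcrh of complex III (0.70 ± 0.11) and Cox6c of complex IV (0.56 ± 0.10). Among DBCP rats the counts were 7 of 71 cytosolic ribosomal proteins, 4 higher and 3 lower (9.86% in all), and 4 of 69 respiratory chain genes, 3 higher and 1 lower (5.80%), against 13.5% of all probe sets. The median SE was 0.07 and 0.08 in these lists, against 0.05 for the mitochondrial ribosomal proteins. The shares were compared as counts, and their difference was not tested.

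**Figure D3:**
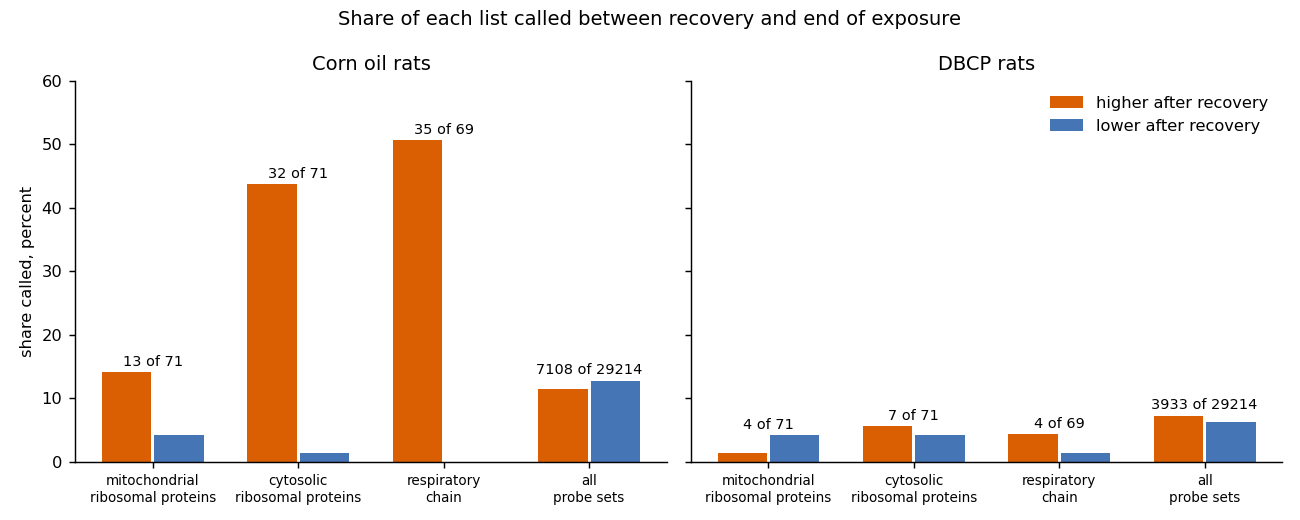
Percent of each list called higher or lower with recovery, for corn oil rats (left) and DBCP rats (right), with the number called of the number measured above the bars. In corn oil rats 13 of 71 mitochondrial ribosomal proteins were called, against 32 of 71 cytosolic ribosomal proteins and 35 of 69 respiratory chain genes.

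Other genes of mitochondrial translation were read against the same shares of all probe sets, 24.3% in corn oil and 13.5% in DBCP rats. The 4 lists that follow had between 9.09% and 20.8% called in corn oil rats and between 0% and 9.09% in DBCP rats. Of 5 measured mitoribosomal proteins with other names, 1 was called in corn oil rats: Chchd1, of the small subunit, rose by 0.37 ± 0.08 (limma adjusted p = 0.000498). Of 11 measured translation factors, 1 rose in corn oil rats (Guf1, an elongation factor, 0.33 ± 0.09) and 1 in DBCP rats (Gfm2, which splits the ribosome after termination, 0.17 ± 0.05). Of 11 mitochondrial aminoacyl-tRNA synthetases, 2 fell in corn oil rats (Aars2 for alanine, -0.16 ± 0.05, and Vars2 for valine, -0.16 ± 0.05) and 1 rose in DBCP rats (Hars2 for histidine, 0.16 ± 0.04). Of 24 genes of ribosome assembly and ribosomal RNA modification, 1 rose and 4 fell in corn oil rats. Tfb1m, which methylates the small-subunit RNA, rose by 0.19 ± 0.06, while the assembly proteins Mpv17l2 and Mtg2 had differences of -0.16 ± 0.04 and -0.16 ± 0.05. In DBCP rats 2 of the 24 fell, Nsun4, an RNA methyltransferase of the ribosome, by 0.44 on the log2 scale (SE 0.10) and Dhx30, an RNA helicase, by 0.11 (SE 0.04).

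Regulators of mitochondrial gene expression were also measured. Of 13 such genes 5 were called in corn oil rats, 3 higher and 2 lower (38.5%, against 24.3% of all probe sets), and 2 in DBCP rats (15.4%, against 13.5%). Ppargc1a, a coactivator of mitochondrial biogenesis, rose by 0.32 ± 0.07 in corn oil rats. Gabpa, the ETS factor of GABP, rose by 0.18 ± 0.05 in corn oil and 0.20 ± 0.05 in DBCP rats. Polg, the mitochondrial DNA polymerase, fell in both, by 0.17 and 0.19 on the log2 scale (SE 0.04 each). Between DBCP and corn oil, 0 genes of these lists were called by limma at either time, as was true of every probe set.

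Cell markers changed over the same interval. Of 26 leukocyte genes 17 rose and 0 fell in corn oil rats, and 18 rose and 1 fell in DBCP rats. Over all probe sets the shares higher and lower were 11.5% and 12.8% in corn oil rats and 7.28% and 6.19% in DBCP rats. Their mean level per array lay between 7.83 and 8.75 in corn oil rats before recovery and between 8.22 and 9.12 after it. In DBCP rats these ranges were 7.67 to 8.48 and 8.05 to 8.84. The dimmest of the 26, Cd3g, had a mean of 5.98 in corn oil rats, below the median probe set mean of 6.69. Of 12 sperm tail genes 5 fell in corn oil and 9 in DBCP rats, and 0 rose. Their mean level per array lay between 8.48 and 9.43 in corn oil rats before recovery and between 8.46 and 9.01 after it. In DBCP rats these ranges were 8.71 to 10.16 and 8.50 to 9.23. Of 10 late spermatid genes 6 fell in corn oil and 9 in DBCP rats. Lists of epididymal and stromal cells moved in both directions. In corn oil rats 4 of 16 principal cell genes rose and 2 fell. Of 7 basal and clear cell genes 2 rose and 1 fell, and of 10 stromal genes 1 rose and 1 fell. In DBCP rats 1 principal cell gene rose and 1 fell, 1 basal and clear cell gene fell, and 2 stromal genes rose. The part of these shifts in the calls of the 71 genes was not tested.

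Within groups, most of the 71 genes varied apart from each other. Deviations from the group means were correlated between every pair of genes over 78 arrays, as a description, since the genes share arrays and RNA. The median r of 2485 pairs was 0.05 (quartiles -0.10 and 0.20), and 3.78% of pairs were above 0.5. Cytosolic ribosomal proteins had a median r of 0.39, with 38.3% of pairs above 0.5, and respiratory chain genes a median of 0.48, with 47.7%. The spread of a member within groups was smaller too, with a median SD of 0.16 against 0.22 and 0.26. The lists also differed in brightness, with a median signal of 6.75 against 9.21 and 7.41. The part of brightness in these r and SD values was not tested.

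Some of the genes varied together. The 5 with the largest SD were Mrpl54 (0.44), Mrpl42 (0.43), Mrps18c (0.40), Mrpl52 (0.36) and Mrps15 (0.36), and the next were Mrpl35 and Mrpl47 (0.26 each). The 10 pairs of the first 5 had r from 0.44 (Mrpl42 with Mrps15) to 0.86 (Mrpl54 with Mrpl52). Each also followed the mean level of the respiratory chain, with r from 0.70 (Mrps15) to 0.86 (Mrpl42). Altogether 20 of 71 genes had r above 0.5 with that level, and Mrps11 (-0.54) and Mrps28 (-0.55) lay at the other end. Mrps15 and Mrpl54 also followed the sperm tail level (0.72 and 0.67), while Mrps21 did not (-0.16). The most even genes within corn oil arrays were Mrpl3 (SD 0.09), Mrpl38 (0.11) and Mrps23 (0.11).

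**Figure D4:**
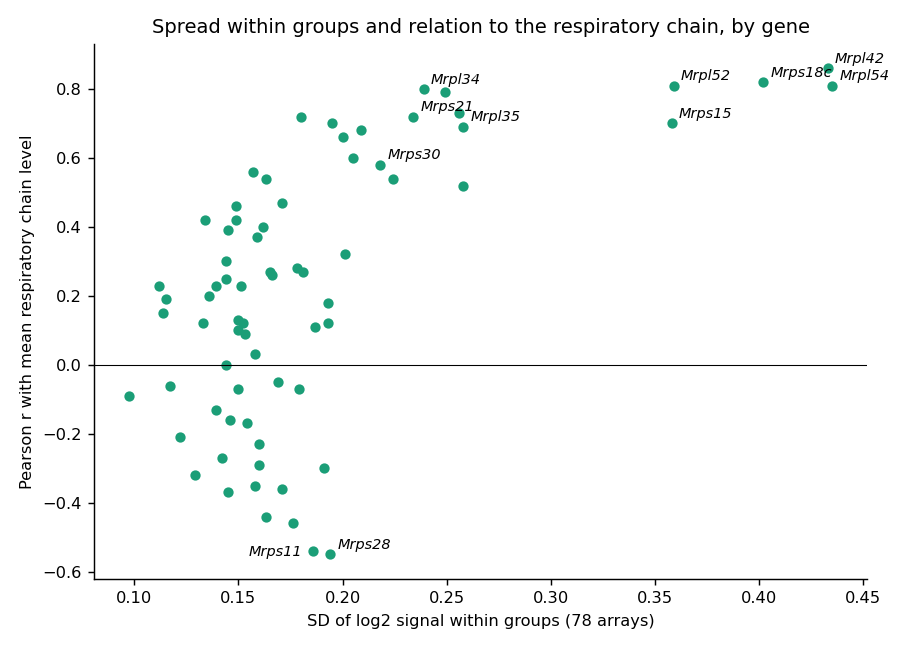
For each of the 71 genes, the SD of its log2 signal within groups (horizontal) and its Pearson r with the mean respiratory chain level (vertical), both from deviations from group means on 78 arrays. Genes of SD above 0.35 all have r of 0.70 or more, while those of small SD scatter on both sides of 0.

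The mean of the 71 genes followed the respiratory chain mean closely, array by array. Pearson's r was 0.93 and Spearman's rho 0.91 over 78 arrays, with r from 0.85 to 0.96 in the 4 groups. It was 0.91 within replicates 1 to 10 and 0.93 within replicates 11 to 20, and 0.90 without the 2 arrays farthest from the median. Without the 5 genes of largest SD, the mean of the other 66 gave r = 0.81, and 0.95 once each array was centred on its median. Centring takes the same median from both means of an array, which can itself raise r. With all 71 genes and no centring, r with cytosolic ribosomal proteins was 0.82, with the leukocyte level 0.41 and with the sperm tail level 0.26. After array centring the leukocyte and sperm tail values were 0.58 and 0.51. Without the 5 genes of largest SD they were 0.33 and 0.04 uncentred, and 0.57 and 0.44 after centring.

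**Figure D5:**
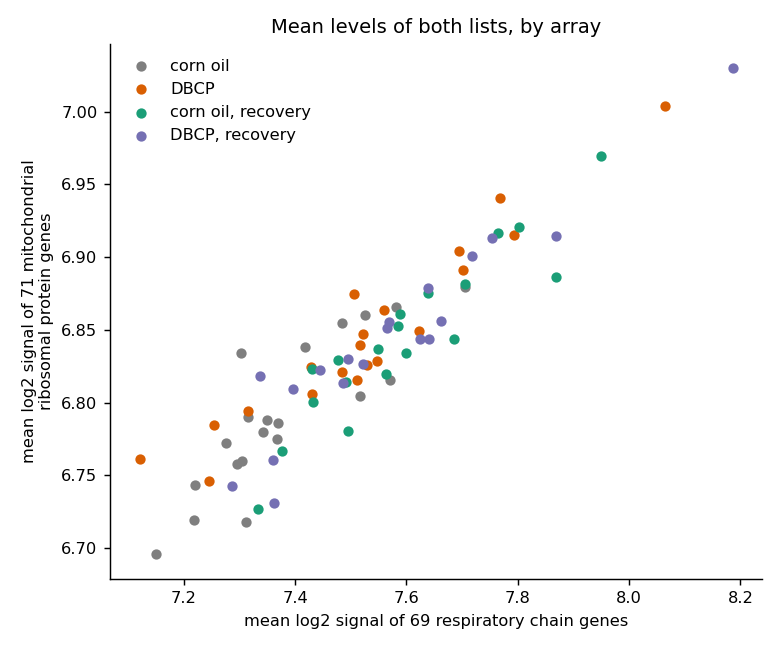
Mean log2 signal of the 71 mitochondrial ribosomal protein genes against that of 69 respiratory chain genes, 1 point per array, coloured by group. The points of the 4 groups lie along 1 band and overlap.

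Probe sets of 1 gene did not always agree. Over time in DBCP rats, the brighter Mrpl42 probe set differed by 0.062 ± 0.135 and the dimmer one by 0.261 ± 0.108, neither called by limma. For Mrps11, a small-subunit protein of the platform, the brighter probe set differed by -0.11 ± 0.06 over time in corn oil rats and the dimmer one by 0.11 ± 0.06, neither called by limma. At the end of exposure the dimmer probe set had a DBCP difference of 0.15 ± 0.06 (limma adjusted p = 0.342) and the brighter one 0.01 ± 0.06. The probe sets of Mrpl40 lay within 0.04 of each other in every comparison, and those of Mrpl41 within 0.08. The probe set that Mrpl20 shares with Ankrd65 differed by 0.04 or less in every comparison.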

How the data were processed

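RNA of rat sperm was measured on 78 arrays (biotin label), 1 per biological replicate. The deposited values are log2 signals per probe set, and the normalization and summarisation by the authors are not stated in the sources used here. Limma is the tool that the submitters' processing notes name. There were 0 missing values and 0 columns that matched no sample. Gene names came from the platform annotation (15310 probe sets with 1 symbol, 323 with several, 13581 with none). The members and lists were chosen with earlier results of these data known.

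A group means model on all 78 arrays and 29214 probe sets was fitted with limma 3.58.1 in R 4.3.3, with no further scaling, and Benjamini-Hochberg adjusted p-values, taken across every probe set, were called under 0.05. The fit was tested on simulated data. Fold is 2 raised to the log2 difference. The number of arrays limits the precision. In each comparison the rule for named genes took the passing genes with the 8 largest rises and falls, or the 5 of smallest p where fewer than 5 passed. It also took the 5 brightest and dimmest genes, the 3 of largest and smallest SD, and some fixed names. Other genes named (Mrpl19, Mrps28, and the genes most variable within groups) were chosen after their values were seen, as were the subunit and origin groups and the promoters shown. Sequences came from RefSeq tables of build GRCr8. Overlapping windows on opposite strands were checked as reverse complements (1435 of 1435). Replicate numbers shared between groups were checked for pairing: 41 of 114 same-numbered pairs correlated above 0.1, with a median of 0.01, so the numbers were not taken to pair samples. Alternatives were quantile normalization, array centring, brighter probe sets only, array weights, leaving out arrays of low weight, a trended robust prior, a replicate block, the set of replicate numbers as a term, each set alone, the groups alone, the mean of a gene's probe sets, a plain 2-sample statistic and leaving out each array.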

Additional observations from a re-analysis of the deposited data

How the results depend on the processing

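Both comparisons of DBCP with corn oil, and their interaction, gave 0 called genes of 71 under every alternative that was run and on leaving out each array. Between recovery and end of exposure in corn oil rats the count of 13 became 8 with replicates 1 to 10 alone and 0 with replicates 11 to 20 alone. Leaving out single arrays gave 11 to 19, and the other settings 13 to 19. In DBCP rats the count of 4 became 0 with replicates 11 to 20 alone, and leaving out single arrays gave 2 to 5 (2 without DBCP replicate 8), and the other settings 3 to 5. Each set alone holds fewer arrays, and its share of called probe sets was lower too. For the other settings and for single arrays left out, that share is not given here. The list's median difference moved with the scaling: in corn oil rats over time it went from 0.019 to 0.051 (quantile) and 0.050 (centring). It changed sign for DBCP after recovery (0.008 to -0.010 under quantile normalization) and, in DBCP rats over time, between the sets (0.026 and -0.040). Among named genes in the comparison each was named for, Mrpl50 changed sign for DBCP after recovery, -0.035 with replicates 1 to 10 alone. The causes were not tested. With a replicate block the counts were 13 in corn oil and 3 in DBCP rats. In DBCP rats Mrpl46 lost its call, and no other call changed. Only 7 of 78 arrays correlated best with an array of their own number. The numbers were not taken as a pairing, though these values cannot exclude one. The number of arrays limits the precision, and the median half-width of a 95% interval was 0.10. The median SE was about the same for the 39 genes at or above the median signal (0.052 for DBCP at the end of exposure) and the 32 below it (0.0515).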
